A study of Mus musculus with 6 samples.

Results

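The expression of genes of bone morphogenetic protein (BMP) signalling and of the Id genes was followed in cultured mouse neural stem/progenitor cells (NSPCs). The members were 10 genes given by name: the ligand Bmp4, the type I receptor Bmpr1a, the signal transducer Smad1, the inhibitors Smad6, Smad7 and Bambi, and the targets Id1, Id2, Id3 and Id4. They were matched by NCBI gene identifier among 17254 genes listed in at least 1 library. Of the 10 members, 9 had values, and Id4 was not analysed here. Of these 9, the 6 genes Bmpr1a, Smad1, Bambi, Id1, Id2 and Id3 had a mean FPKM (fragments per kilobase of transcript, scaled to the library total) of at least 1 and were tested together with the other genes above this limit, 11717 in all. Bmp4, Smad6 and Smad7 were below it.

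The study compared NSPCs kept under an oxidant or an antioxidant with untreated cells, and RNA was sequenced from 2 libraries per group after 48 h. Control cells received no agent, PQ cells received 5 µM paraquat, a compound that makes superoxide by redox cycling, and NAC cells received 5 mM N-acetylcysteine, an antioxidant thiol. Per the methods, all groups, controls included, came from an immortalized neonatal Ink/Arf-/- NSPC culture grown in N2 medium with EGF and bFGF at 20 ng/mL, so that a single line stands for NSPCs here. The labels of control 1 and PQ 1 spell the genotype Ink/Ark knockout and give the strain C57BL/6, whereas the other 4 labels give neither. The methods for the sequencing give the PQ dose as the label of PQ 1 does, the culture methods give 10 µM, and the label of PQ 2 gives none.

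Control 1 and PQ 1 are labelled as extracted with NucleoSpin columns and prepared with Illumina protocols, and the other 4 libraries as extracted with TRIZOL and sequenced on BGISEQ. Both NAC libraries thus shared their labelled protocol with control 2 and PQ 2 only. The reporting summary says that sequencing was repeated, but neither it nor a label says that the libraries of a group came from separate cultures, so that p-values measure only the spread between these samples, which may be technical. The totals were 9849392 and 10040827 expected counts in control 1 and 2, 10388731 and 9680436 in PQ 1 and 2, and 10698241 and 9907726 in NAC 1 and 2. Cdkn2a, the gene at the deleted Ink/Arf locus, still had 144 and 165 normalized counts in control, 115 and 137 in PQ, and 121.5 and 131 in NAC. A gene total cannot show which exons are missing, so these counts do not check the genotype.

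BMP ligands bind pairs of type I and type II receptors, which phosphorylate Smad1, Smad5 and Smad9. These Smads join Smad4 in the nucleus and activate the Id genes, while Smad6, Smad7 and the pseudoreceptor Bambi dampen the signal as feedback inhibitors. Id proteins carry a helix-loop-helix without a DNA-binding part and hold back basic helix-loop-helix (bHLH) factors, and in neural stem cells BMP signals are known for favouring quiescence and astrocyte fate over neurogenesis.

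Id2 was highest in PQ, Id3 was highest in NAC and Id1 was lowest in NAC. Over control, Id2 and Bambi were called higher in PQ, while Id3 and Bambi were called higher and Id1 lower in NAC. Id3, which was not called in PQ over control, had a log2 fold change of 0.33 there, near the 0.34 of Id2. The 3 tested Id genes were each called between PQ and NAC. Of all these calls, only Id3 in NAC over control and Id2 between PQ and NAC held under all 13 alternative fits. In such bulk samples fewer cells of a type and less RNA per cell cannot be told apart. In PQ against control, edgeR called 2 of the 6 tested members at an adjusted p under 0.05, both higher, and 2250 of 11717 genes (19.2%), with 9.76% higher and 9.45% lower. In NAC against control it called 3 members, 2 higher and 1 lower, and 2186 genes (18.7%), with 9.01% higher and 9.64% lower. In PQ against NAC it called 3 members, 2 higher and 1 lower, and 3708 genes (31.6%), with 16.0% higher and 15.7% lower.

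These counts over 6 genes are a description and were not tested against the background. The median log2 fold change of the tested members was 0.17 for PQ over control, 0.05 for NAC over control and -0.08 for PQ over NAC, beside -0.001, -0.002 and 0.0004 over all genes tested. PQ and NAC were each set against the same control libraries, so their values are given side by side and not as independent results. The members' counts were sensitive to the tool and to single libraries. DESeq2 called 0 members in PQ against control, with 3 at an unadjusted p under 0.05, where edgeR called 2 and limma called 1 on either FPKM scale. edgeR also called 0 without control 1, with 2 at an unadjusted p under 0.05, and 1 without each of PQ 1, control 2 and PQ 2. In NAC against control edgeR called 1 member without control 1 or without NAC 2, and 2 without control 2 or without NAC 1. In PQ against NAC it called 1 without PQ 2, NAC 1 or NAC 2, and 2 without PQ 1. Among all genes, the calls dropped from 2250 to 866 without PQ 1, from 2186 to 1286 without NAC 1 and to 1427 without NAC 2, and from 3708 to 2343 without PQ 1 and to 2407 without NAC 1.

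**Figure D1:**
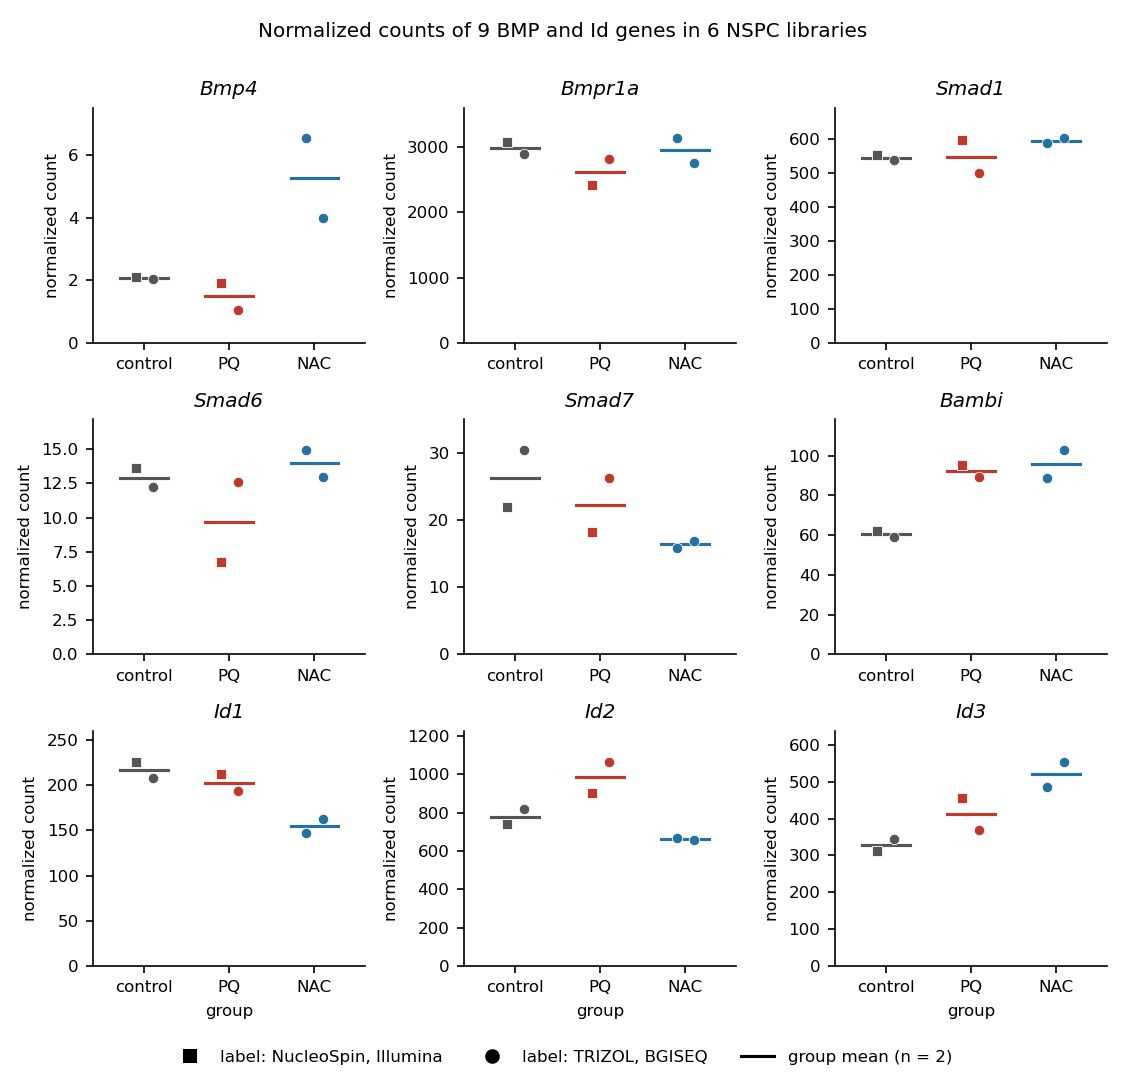
Normalized counts of the 9 members with values in each library (vertical axes from 0), by group, with squares and circles for the labelled protocols and bars for the mean of 2 libraries. Bambi lies between 59.0 and 61.8 in control and between 88.8 and 103 in the 4 treated libraries.

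On the FPKM scale, which allows levels of different genes to be compared, the members spanned a wide range. Id2 was highest at a median of 59.6 FPKM over the 6 libraries (52.3 to 82.4), followed by Bmpr1a at 50.9 (43.8 to 56.8) and Id3 at 43.4 (32.1 to 59.6). The ranges of these neighbours overlapped, so their order was not separated. Id1 at 22.2 FPKM (16.5 to 24.7) and Smad1 at 17.8 (15.6 to 19.3) overlapped each other and lay below every library's Id3 level. Bambi was far lower at 1.74 FPKM (1.14 to 2.05). Smad7 at 0.445 (0.36 to 0.67), Smad6 at 0.43 (0.23 to 0.5) and Bmp4 at 0.1 (0.03 to 0.31) were below the limit for testing. The range of each overlapped that of its neighbour. Compared within each library, Smad6 was above Bmp4 throughout. Id1 was above Smad1 in the control and PQ libraries and below it in the NAC libraries.

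The ligand Bmp4 was close to the limit of detection. Its expected counts were 2.05 and 2.02 in control, 1.91 and 0.66 in PQ, and 6.57 and 4.02 in NAC. Both NAC libraries were above the other 4, but control and PQ were at no more than 3 counts, the level treated here as not detectable, and no fold is given. The counts of Bmp4 were fractional in all 6 libraries, and 2 annotated noncoding RNAs overlap the gene, from which its reads cannot be told apart because the use of strand in counting is not given in the sources used here. Among the other 13 BMP-type ligands listed, 10 had values and only Bmp5 reached a mean FPKM of 1. Bmp5 had 412 and 398 normalized counts in control, 417 and 454 in PQ, and 297 and 284 in NAC. The NAC libraries lay below all others, and Bmp5 fell in NAC by a log2 fold change of -0.48 (SE 0.12, edgeR adjusted p = 0.00623). Without NAC 2 this call was lost, at -0.45 and an adjusted p of 0.0628, the highest of a range from 0.00283 over 13 alternatives, in edgeR and the other tools. For PQ over control the log2 fold change of Bmp5 was 0.11 (SE 0.11, edgeR adjusted p = 0.570). Bmp5 was higher in PQ than in NAC by 0.58 (SE 0.11, edgeR adjusted p = 0.000694), a call kept under all 13 alternatives.

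Bmpr1a, the type I receptor that binds BMP2 and BMP4, is encoded on chromosome 14 (34411061 to 34503336, GRCm38.p6, which corresponds to mm10, the build named in 4 of the 6 labels, while control 1 and PQ 1 name mm9). It had 3078 and 2902 normalized counts in control, 2418 and 2823 in PQ, and 3141 and 2765 in NAC. The PQ libraries were lower than both control libraries, and the NAC libraries lay on either side of the control libraries. PQ differed from control by a log2 fold change of -0.19 (SE 0.10, edgeR adjusted p = 0.207). It was -0.02 for NAC over control (SE 0.10, edgeR adjusted p = 0.929) and -0.17 for PQ over NAC (SE 0.10, edgeR adjusted p = 0.208). The fold of PQ over control was not even between protocols, at -0.35 within the NucleoSpin libraries and -0.04 within the TRIZOL libraries.

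A different type I receptor, Acvr1, separated the treatments. It had 618 and 621 normalized counts in control, 779 and 768 in PQ, and 517 and 458 in NAC. The 3 groups did not overlap, with PQ highest and NAC lowest. Acvr1 was higher in PQ than in NAC by a log2 fold change of 0.66 (SE 0.10, edgeR adjusted p = 6.91e-05), a call kept under all 13 alternatives. It rose in PQ over control by 0.32 (SE 0.10, edgeR adjusted p = 0.0329, range over the alternatives 0.0323 to 0.181) and fell in NAC by a log2 fold change of -0.34 (SE 0.10, edgeR adjusted p = 0.0259, range 0.0239 to 0.22). The rise in PQ was lost without control 1 (0.32, edgeR adjusted p = 0.0837), PQ 1 (0.31, 0.181), control 2 (0.32, 0.0670) or PQ 2 (0.33, 0.117). The fall in NAC was lost without control 1 (-0.35, edgeR adjusted p = 0.0567), control 2 (-0.34, 0.0561) or NAC 2 (-0.26, 0.22). Both calls against control were also lost with DESeq2 and with the protocol as a covariate, and the fall in NAC with limma.

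Smad1, which carries the BMP signal to the nucleus, is on chromosome 8 (79338395 to 79399428). Its normalized counts were 552 and 536 in control, 595 and 499 in PQ, and 587 and 601 in NAC. The PQ libraries lay on either side of the control libraries. Between PQ and control the log2 fold change was 0.01 (SE 0.11, edgeR adjusted p = 0.968), 0.13 for NAC over control (SE 0.11, edgeR adjusted p = 0.469) and -0.12 for PQ over NAC (SE 0.11, edgeR adjusted p = 0.450). Smad5, which shares this role, had 2182 and 2145 normalized counts in control, 1594 and 1771 in PQ, and 2685 and 2529.7 in NAC. No group overlapped another, and Smad5 was lowest in PQ and highest in NAC. It fell in PQ by a log2 fold change of -0.36 (SE 0.09, edgeR adjusted p = 0.0107, range over the alternatives 0.00342 to 0.184), and this call was lost without PQ 1 (-0.29, edgeR adjusted p = 0.184). It was lower in PQ than in NAC by -0.63 (SE 0.09, edgeR adjusted p = 4.55e-05, kept under all 13 alternatives), and its value for NAC over control was 0.27 (edgeR adjusted p = 0.0510).

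The inhibitory Smads were low. Smad6 had 13.6 and 12.2 normalized counts in control, 6.73 and 12.6 in PQ, and 15.0 and 13.0 in NAC. All libraries but PQ 1 were within the range of 12.2 to 15.0. Smad7 had 22.0 and 30.5 normalized counts in control, 18.3 and 26.3 in PQ, and 15.9 and 17.0 in NAC. Both NAC libraries were below the other 4. In a fit without the limit on FPKM the log2 fold change of Smad7 for NAC over control was -0.68 (SE 0.38, edgeR adjusted p = 0.261), and for PQ over control it was -0.25 (SE 0.36, edgeR adjusted p = 0.730). For Smad6 the same fit gave -0.43 for PQ over control (SE 0.54, edgeR adjusted p = 0.712). At these counts no difference was detectable, and Smad7 is overlapped by 1 annotated noncoding RNA.

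Bambi, a receptor-like protein without a kinase that blocks BMP and TGF-beta receptors, rose under both agents. It had 61.8 and 59.0 normalized counts in control, 95.2 and 89.4 in PQ, and 88.8 and 103 in NAC. All 4 treated libraries were above both control libraries, and PQ and NAC overlapped. Bambi rose in PQ by a log2 fold change of 0.61 (SE 0.20, edgeR adjusted p = 0.0366) and in NAC by 0.66 (SE 0.20, edgeR adjusted p = 0.0226). For PQ over NAC the value was -0.05 (SE 0.18, edgeR adjusted p = 0.861). The log2 ratio of PQ to control was 0.62 within the NucleoSpin libraries and 0.60 within the TRIZOL libraries, and the ratios of NAC 1 and NAC 2 to control 2 were 0.59 and 0.80.

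These calls were lost in several fits that left 1 library in a group. In those fits the fold of PQ over control changed little, at 0.56 to 0.65. In PQ against control the Bambi call was lost without control 1 (0.65, edgeR adjusted p = 0.0896), PQ 1 (0.56, 0.202), control 2 (0.58, 0.116) or PQ 2 (0.65, 0.0913), and with DESeq2 (adjusted p = 0.15), in a range of 0.0248 to 0.202 over the 13 alternatives. In NAC against control it was lost without control 1 (0.70, edgeR adjusted p = 0.0599), control 2 (0.63, 0.0843) or NAC 2 (0.56, 0.161), and with DESeq2 (adjusted p = 0.108), in a range of 0.0105 to 0.161. limma on FPKM did not call Bambi in either comparison.

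**Figure D2:**
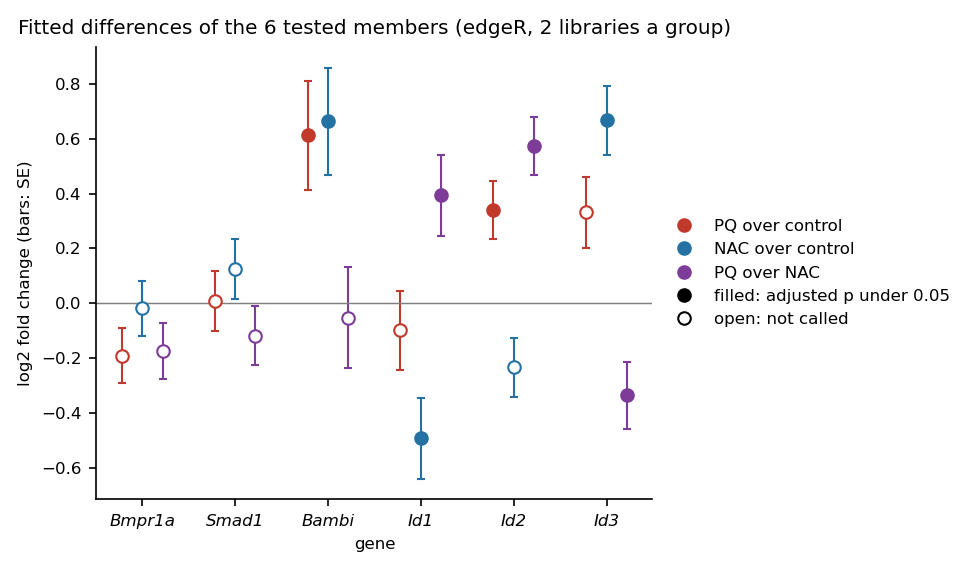
Log2 fold changes of the 6 tested members in the 3 comparisons (points, edgeR) with their standard errors (bars), filled where the adjusted p was under 0.05. Id3 stands at 0.67 and Id1 at -0.49 for NAC over control, on opposite sides of 0.

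Id1, a target of BMP-activated Smads, is on chromosome 2 (152736251 to 152737410). It had 226 and 209 normalized counts in control, 212 and 193 in PQ, and 147 and 163 in NAC. Both NAC libraries were below the other 4, and PQ overlapped control. Id1 fell in NAC by a log2 fold change of -0.49 (SE 0.15, edgeR adjusted p = 0.0243), and its value for PQ over control was -0.10 (SE 0.14, edgeR adjusted p = 0.687). It was higher in PQ than in NAC by 0.39 (SE 0.15, edgeR adjusted p = 0.0493). The fall in NAC was lost with the labelled protocol as a covariate (-0.43, edgeR adjusted p = 0.106), with DESeq2 (adjusted p = 0.0749), and without control 1 (-0.43, edgeR adjusted p = 0.104), NAC 1 (-0.42, 0.179) or NAC 2 (-0.57, 0.0611), in a range of 0.0154 to 0.179 over the alternatives. Within the TRIZOL protocol the log2 ratios of NAC 1 and NAC 2 to control 2 were -0.51 and -0.36. The call of PQ against NAC was lost without PQ 1 (0.32, edgeR adjusted p = 0.253), PQ 2 (0.46, 0.0895), NAC 1 (0.32, 0.256) or NAC 2 (0.47, 0.0848), with DESeq2 (adjusted p = 0.136), with the protocol as a covariate (0.185) and without the limit on FPKM (0.0543), in a range of 0.0302 to 0.256.

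Id2 and Id3 carried the 2 calls among the members that all 13 alternatives kept, and the 250 bases before their annotated starts are shown for this reason, from RefSeq on GRCm38.p6. Promoter sequences were matched for 7 of the 10 members, and Id1, Bambi and Smad7 had no entry. Capitals mark matches to GGCGCC, a GC-rich motif of BMP-activated Smads, and to CAGAC, a Smad-binding element, on either strand (its reverse complement is GTCTG), and the motifs do not overlap each other. The Id2 stretch is chr12:25096093-25096342 on the minus strand and the Id3 stretch is chr4:136143572-136143821 on the plus strand.
Id2: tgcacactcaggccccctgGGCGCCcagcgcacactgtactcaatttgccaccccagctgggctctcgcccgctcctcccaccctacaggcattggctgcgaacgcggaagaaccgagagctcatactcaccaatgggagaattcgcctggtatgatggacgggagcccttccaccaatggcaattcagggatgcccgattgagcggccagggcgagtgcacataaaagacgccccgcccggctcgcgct
Id3: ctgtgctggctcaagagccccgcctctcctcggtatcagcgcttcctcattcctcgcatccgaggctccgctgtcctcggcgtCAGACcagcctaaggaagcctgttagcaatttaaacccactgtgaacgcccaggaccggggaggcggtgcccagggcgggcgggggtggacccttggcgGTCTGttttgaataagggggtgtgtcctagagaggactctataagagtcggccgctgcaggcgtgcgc
GGCGCC was found in the Id2 stretch at -231 to -226 from the start and in 9.59% of 32851 promoter stretches of 250 bases. CAGAC was found in the Id3 stretch at -167 to -163 and, as GTCTG, at -68 to -64, and 42.2% of the stretches held it at least once. Of the other members, Id4 held GGCGCC at -148 to -143, and Bmpr1a held it at -198 to -193 from a start that lies inside the annotated span of the gene (stretch chr14:34502547-34502796). A match is a description of letters and not of binding, which was not measured.

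Id2 (chromosome 12, 25093799 to 25096092), whose protein also binds the retinoblastoma protein, rose in PQ. It had 739 and 819 normalized counts in control, 905 and 1067 in PQ, and 667 and 658 in NAC. The 3 groups did not overlap, with PQ highest and NAC lowest. Id2 rose in PQ over control by a log2 fold change of 0.34 (SE 0.11, edgeR adjusted p = 0.0305), and the ratio was 0.29 within the NucleoSpin libraries and 0.38 within the TRIZOL libraries. The rise was lost without control 1 (0.27, edgeR adjusted p = 0.15) or PQ 2 (0.22, 0.312) and with DESeq2 (adjusted p = 0.0544), in a range of 0.0177 to 0.312. For NAC over control the log2 fold change was -0.23 (SE 0.11, edgeR adjusted p = 0.145). Between PQ and NAC, Id2 was higher in PQ by 0.57 (SE 0.11, edgeR adjusted p = 0.000415), and the 13 alternatives gave 0.45 to 0.69 with adjusted p from 3.6e-06 to 0.0169.

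Id3 (chromosome 4, 136143822 to 136145392) was highest in NAC instead. It had 312 and 344 normalized counts in control, 456 and 369 in PQ, and 487 and 555 in NAC. Again the groups did not overlap, with control lowest and PQ between. Id3 rose in NAC over control by a log2 fold change of 0.67 (SE 0.13, edgeR adjusted p = 0.000851), and the 13 alternatives gave 0.57 to 0.76 with adjusted p from 2.67e-06 to 0.0216. The log2 ratios of NAC 1 and NAC 2 to control 2, which shares their labelled protocol, were 0.50 and 0.69. For PQ over control the value was 0.33 (SE 0.13, edgeR adjusted p = 0.0793), with 0.55 within the NucleoSpin libraries and 0.10 within the TRIZOL libraries. Leaving out PQ 2 gave 0.47, where a call was gained, and leaving out PQ 1 gave 0.17, without a call. Id3 was lower in PQ than in NAC by -0.33 (SE 0.12, edgeR adjusted p = 0.0455). That call was lost with the protocol as a covariate (-0.38, edgeR adjusted p = 0.0608) and without PQ 2 (-0.19, 0.389), NAC 1 (-0.43, 0.0549) or NAC 2 (-0.24, 0.30), as well as with DESeq2 (adjusted p = 0.108) and with limma (0.064 and 0.0642 on the 2 FPKM scales), in a range of 0.0222 to 0.389.

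The makeup of the Id transcripts differed between groups on the FPKM scale. Id1, Id2 and Id3 together gave 113 and 122 FPKM in control, 144 and 142 in PQ, and 121 and 130.4 in NAC. The sum was 117 ± 6.14 in control, 143 ± 0.905 in PQ and 126 ± 6.84 in NAC (mean ± SD, n = 2), so that PQ stood above both others and NAC overlapped control. Id3 made up 28.4 and 29.4% of this sum in control, 33.7 and 27.05% in PQ, and 42.8 and 45.7% in NAC. Id1 made up 21.8 and 18.9% in control, 16.7 and 15.0% in PQ, and 13.7 and 14.2% in NAC. The ratio of Id3 to Id1 was 1.30 and 1.55 in control, 2.02 and 1.80 in PQ, and 3.13 and 3.22 in NAC, with no overlap between groups. This ratio was chosen after the values were seen and was not tested.

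**Figure D3:**
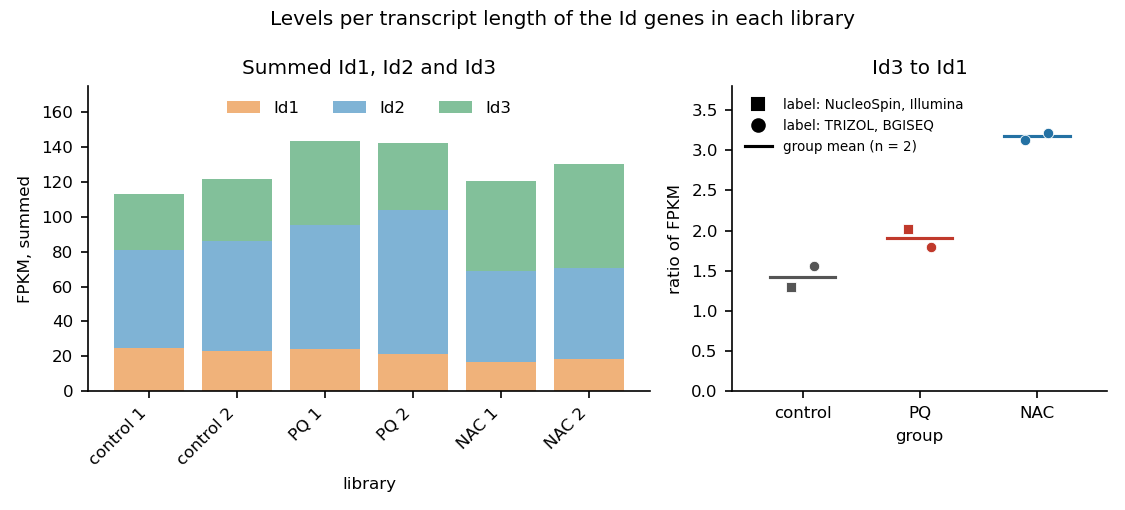
FPKM of Id1, Id2 and Id3 stacked for each library (left), and the ratio of Id3 to Id1 FPKM by group (right, points for libraries and bars for the mean of 2). The NAC libraries have the highest ratios, 3.13 and 3.22.

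**Figure D4:**
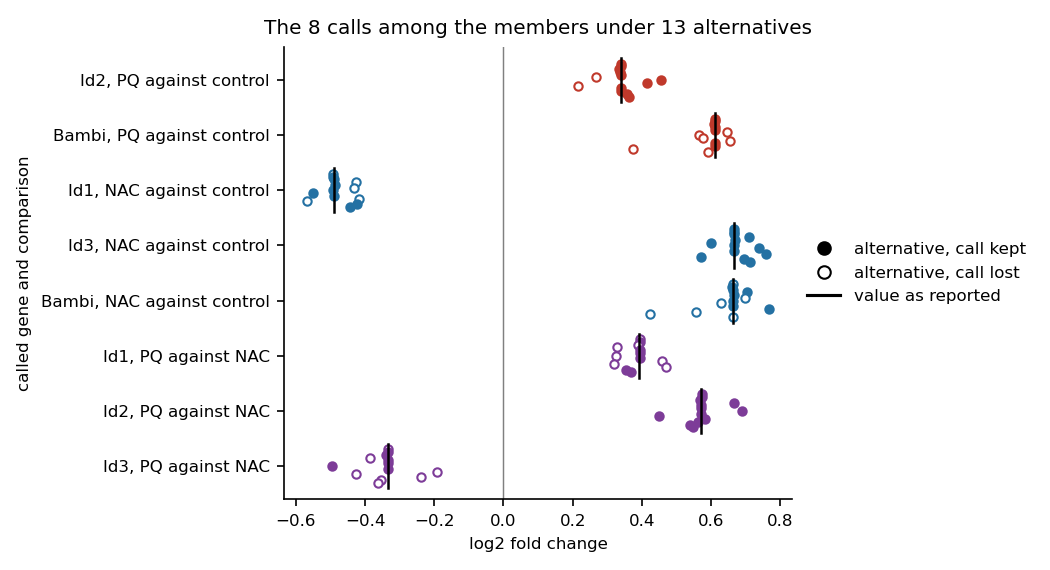
Log2 fold changes of the 8 calls among the members (black bars) and of the same quantity under the 13 alternatives (points), filled where the adjusted p stayed under 0.05. The calls of Id3 in NAC against control and of Id2 in PQ against NAC were kept in all 13.

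Beyond the members, 53 further genes of the pathway were listed, of which 45 had values and 24 were tested. PQ raised 4 and lowered 2 of the 24, beside 19.2% of all genes called, with a median log2 fold change of -0.03. NAC raised 4 and lowered 3, beside 18.7% of all genes, with a median of -0.04. Between PQ and NAC, 6 were higher and 6 lower in PQ, beside 31.6% of all genes, with a median of -0.04. These counts are a description and were not tested against the background. Single libraries moved these counts. The count in PQ against control went from 6 to 3 without control 1, to 2 without PQ 1 and to 3 without PQ 2. In NAC against control it went from 7 to 3 without control 1 and to 2 without NAC 2, and in PQ against NAC from 12 to 7 without PQ 2.

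Secreted antagonists, which bind ligands outside the cell, were among the pathway genes called in each treatment. Fst, which encodes follistatin, had 40.9 and 61.0 normalized counts in control, 108 and 114 in PQ, and 41.1 and 59.9 in NAC. The PQ libraries were above the other 4, and NAC overlapped control. Fst rose in PQ by a log2 fold change of 1.11 (SE 0.23, edgeR adjusted p = 0.00224). Nbl1, a BMP antagonist of the DAN family, had 51.3 and 54.9 normalized counts in control, 76.9 and 57.8 in PQ, and 106 and 125 in NAC. The NAC libraries were highest, and Nbl1 rose in NAC by a log2 fold change of 1.11 (SE 0.21, edgeR adjusted p = 0.000767). Fstl1, a follistatin-like protein, had 1253 and 1292 normalized counts in control, 1082 and 1168 in PQ, and 810.4 and 901 in NAC. The 3 groups did not overlap, and Fstl1 fell in NAC by a log2 fold change of -0.57 (SE 0.10, edgeR adjusted p = 0.000343). These 3 calls were kept under all 13 alternatives. Other antagonist calls held under fewer of the 13. Those of Bmper were lost in both treatments with DESeq2 and with limma on both FPKM scales. In NAC the Bmper call was also lost with the protocol as a covariate and with only the 4 libraries compared. That of Chrdl1 in PQ was lost with limma on both FPKM scales. The rise of Bmper in PQ (0.83, edgeR adjusted p = 0.0271, range 0.0146 to 0.143), kept under 6, was lost without control 1 (0.90, 0.0667), PQ 1 (0.82, 0.143), control 2 (0.76, 0.106) or PQ 2 (0.85, 0.0898). Its rise in NAC (0.78, edgeR adjusted p = 0.0388, range 0.0247 to 0.173), kept under 2, was lost without control 1 (0.85, 0.0853), control 2 (0.71, 0.141), PQ 1 (0.77, 0.0543), PQ 2 (0.78, 0.0529), NAC 1 (0.77, 0.139) or NAC 2 (0.78, 0.122). The fall of Chrdl1 in PQ (-0.33, edgeR adjusted p = 0.0262, range 0.0178 to 0.259), kept under 8, was lost without control 1 (-0.30, 0.0821), PQ 1 (-0.26, 0.259) or PQ 2 (-0.40, 0.0554).

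Among the intracellular inhibitors, Tob1, which binds Smads, had 766 and 710.1 normalized counts in control, 1203 and 1088 in PQ, and 711 and 598 in NAC. PQ was highest, and Tob1 rose in PQ by a log2 fold change of 0.63 (SE 0.11, edgeR adjusted p = 0.000414), a call kept under all 13 alternatives, although 4 of the 6 libraries gave it a fractional count. The target Hey1, a bHLH repressor also driven by Notch, had 136 and 181 normalized counts in control, 129.8 and 121 in PQ, and 236 and 258 in NAC. The NAC libraries were highest and the groups did not overlap. Hey1 was lower in PQ than in NAC by a log2 fold change of -0.98 (SE 0.16, edgeR adjusted p = 0.000131), which all 13 alternatives kept. Its rise in NAC over control, 0.64 (SE 0.16, edgeR adjusted p = 0.00715, range 0.000613 to 0.0844), was lost without control 1 (0.45, edgeR adjusted p = 0.0844) or NAC 2 (0.57, 0.0663).

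**Figure D5:**
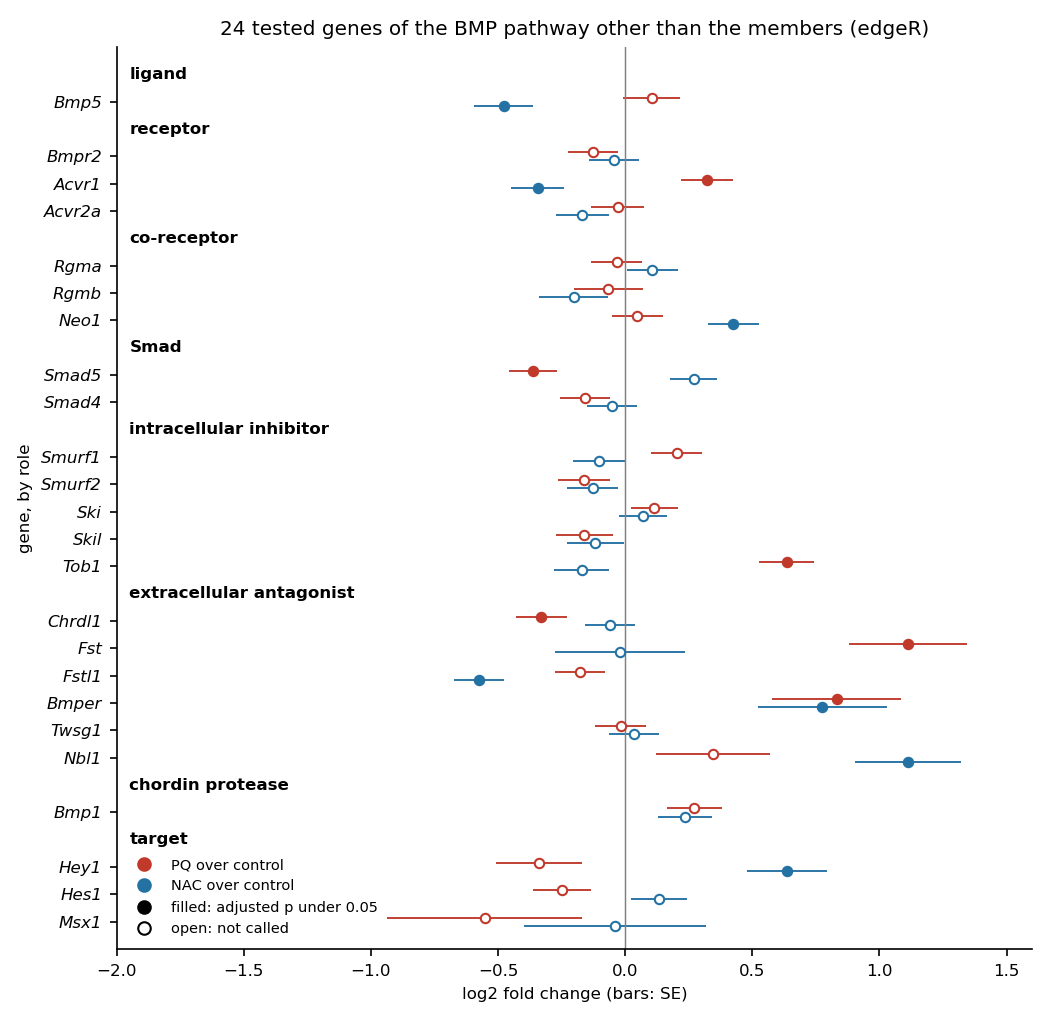
Log2 fold changes over control (points, edgeR) and standard errors (bars) of the 24 tested pathway genes other than the members, grouped by role, with PQ in red and NAC in blue. Fst in PQ and Nbl1 in NAC both stand at 1.11.

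Of 9 listed bHLH partners of Id proteins, 8 had values and 6 were tested. PQ lowered 2 of the 6, with the E protein Tcf3 among them, NAC raised 1, Olig1, and between PQ and NAC 1 was higher and 2 lower in PQ, where 19.2, 18.7 and 31.6% of all genes tested were called. These counts were not tested against the background. Of the 3 calls between PQ and NAC, 1 was kept without NAC 1, NAC 2 or PQ 2. The Tcf3 call (-0.33, edgeR adjusted p = 0.0210, range 0.0124 to 0.139) was lost without PQ 1 (-0.35, 0.109), control 2 (-0.26, 0.0994) or PQ 2 (-0.30, 0.139) and with limma on both FPKM scales. The Olig1 call (0.41, edgeR adjusted p = 0.0170, range 7.32e-05 to 0.235) was lost without control 1 (0.25, 0.18) or NAC 2 (0.27, 0.235), with the protocol as a covariate and with limma on both FPKM scales.

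Markers of cell types moved with NAC as well, in the same libraries in which Id3 rose and Id1 fell. The labelled cell type was checked with 8 stem and progenitor markers, which summed to 3289 and 3374 FPKM in control, 3681 and 3735 in PQ, and 2545 and 2473 in NAC, with Vim most abundant at a mean of 2073 and Hes5 at no more than 3 counts in any library. NAC lowered 3 of the 7 tested, and 1 of these calls was kept without control 1, NAC 1 or NAC 2. That of Vim (-0.75, SE 0.08, edgeR adjusted p = 3.77e-06) was kept under all 13 alternatives. Sox2 (-0.31, edgeR adjusted p = 0.0271, range 0.00405 to 0.253) kept its call in 7 of them and lost it without control 1 (-0.19, 0.253), NAC 1 (-0.28, 0.161) or NAC 2 (-0.34, 0.0864). Nes (-0.28, edgeR adjusted p = 0.0297, range 0.012 to 0.149) kept its call in 3 and lost it without any 1 of the 6 libraries, with 0.0518 without control 1, 0.107 without control 2, 0.0512 without PQ 1, 0.0521 without PQ 2, 0.129 without NAC 1 and 0.149 without NAC 2. The Sox2 and Nes calls in NAC were also lost with the protocol as a covariate and with limma on both FPKM scales. That of Nes was lost with only the 4 libraries compared as well. Sox2 also fell in PQ over control (-0.35, edgeR adjusted p = 0.0138), a call lost without control 1, PQ 1 or PQ 2. Its value for PQ over NAC was -0.04 (edgeR adjusted p = 0.782). Nes instead rose in PQ over control (0.34, edgeR adjusted p = 0.00862), a call lost without PQ 1 or PQ 2. The 8 astrocyte markers were all tested, and NAC raised 5 and lowered 1. They summed to 284 and 271 FPKM in control, 279 and 296 in PQ, and 336 and 334 in NAC. Their most abundant gene, Gja1 at a mean of 127 FPKM, was the one lowered in NAC, by a log2 fold change of -0.43 (SE 0.09, edgeR adjusted p = 0.00217). Gfap, which encodes an astrocyte filament, had 46.1 and 60.02 normalized counts in control, 48.1 and 54.7 in PQ, and 111 and 139 in NAC. It rose in NAC by a log2 fold change of 1.23 (SE 0.21, edgeR adjusted p = 0.000315, kept under all 13 alternatives).

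Of the 8 oligodendrocyte lineage markers 4 were tested, and NAC raised 3, with 0 of these calls kept without control 1 or NAC 2. They summed to 652 and 753 FPKM in control, 768 and 666 in PQ, and 816 and 926 in NAC, with Olig1 most abundant and Sox10 at no more than 3 counts in any library. The neuron markers summed to 38.4 and 36.3 FPKM in control, 34.0 and 35.1 in PQ, and 65.5 and 59.0 in NAC, nearly all from Map2, the single gene of the 7 that was tested, which NAC raised, and Stmn2 was at no more than 3 counts in any library. Other neuron markers were low and untested, and did not follow Map2: Tubb3 had 43.0 and 23.4 normalized counts in control, 12.5 and 8.41 in PQ, and 5.61 and 7.99 in NAC. Syt1 had 8.38 and 11.2 in control, 12.5 and 12.6 in PQ, and 2.80 and 4.99 in NAC. Over the 23 markers tested, NAC raised 10 and lowered 4, and PQ raised 3 and lowered 2, while 6 were higher and 9 lower in PQ than in NAC. Over all genes tested, 18.7% were called with NAC, 19.2% with PQ and 31.6% between them, and the marker counts were not tested against this background. All 13 alternatives kept 7 of the 14 NAC calls, 1 of the 5 PQ calls and 10 of the 15 between PQ and NAC. Of the NAC calls 8 were kept without NAC 2, 9 without NAC 1 and 9 without control 1, and of the PQ calls 1 was kept without PQ 1 and 2 without PQ 2. The part of these markers in the results for Id1 and Id3 was not tested. In the NAC libraries the 10 most abundant genes also took a smaller share of the counts, 3.82 and 4.03% against 4.72 to 5.03% in the other 4, and its part in the results was not tested either.

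Genes with profiles most like those of Id1 and Id3 were sought by Pearson's r of log2 CPM (counts scaled to the library total) over the 6 libraries, among 1570 tested genes that spanned at least 1 on this scale. For Id1 they were Ggt7 (r = 0.981), Stard5 (0.975), Sesn2 (0.975), Disp2 (0.974) and Prune2 (0.971). For Id3 they included Lenep (r = 0.985), Lypla2 (0.977), Nbl1 (0.973) and Sele (0.971). Lenep was low, at 6.10 to 16.0 normalized counts over the libraries. These values describe 6 libraries that share their groups and carry no test. Nbl1, the antagonist raised in NAC, was on both the pathway list and this one. Positions were looked up after the values were seen: Lypla2 (chromosome 4, 135968224 to 135972612, GRCm38.p6) lies 171 kb from Id3. Nbl1 is on the same chromosome, 2937 kb from Id3. Ggt7 and Disp2 are on the chromosome of Id1, 2753 and 33941 kb from it. Whether genes near Id3 share its profile was not tested. Lypla2 had 831 and 999 normalized counts in control, 1541 and 1266 in PQ, and 1589 and 1930.5 in NAC, with the same order of the libraries as Id3.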

How the data were processed

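The authors deposited 1 gene table per library with an expected count, an estimate that need not be whole, and an FPKM value, scaled by the authors for transcript length and library total. Per the submitters' notes, control 1 and PQ 1 were processed with bcl2fastq 2.17, cutadapt, TopHat2 2.0.11 and Cufflinks 2.1.1 on mm9, and the other 4 with HISAT2 2.0.4, Bowtie2 2.2.5 and RSEM on mm10. All 6 tables nevertheless share columns of the RSEM type, so the pipeline and build behind the values of control 1 and PQ 1 are unclear. The use of strand in counting is not given in the sources used here. Symbols from RefSeq (GRCm38.p6) matched 99.7% of the genes. Expected counts were rounded, genes whose FPKM averaged at least 1 were kept, and all 6 libraries were fitted together in R 4.3.3 with edgeR 4.0.16 (TMM, glmQLFit, glmQLFTest), with Benjamini-Hochberg adjustment over all genes tested and a threshold of 0.05. Normalized counts are counts scaled by TMM library sizes. Standard errors come from the fold change and its F statistic. DESeq2 1.42.0, limma 3.58.1 on log2(FPKM + 1) and log2(FPKM + 0.1), DESeq2's size factors, no filter, the labelled protocol as a covariate, only the 4 libraries compared and leaving out each library were the alternatives, and where a group keeps 1 library it is assumed to vary like the others. The scripts were tested on simulated data. The 10 members are named throughout. Of the lists of pathway genes, Id partners, TGF-beta genes and cell type markers, the counts are given, with names for up to 4 genes per role at an adjusted p under 0.05 by size of change, and defining markers that were not detected. The members and lists were chosen with earlier results of these data known. Likeness used log2 CPM with a prior count of 2. Some genes of these lists are not reported here.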

Additional observations from a re-analysis of the deposited data

How the results depend on the processing

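Over the refits of single members, direction and side of the threshold were kept in 190, a call was lost in 35 and gained in 1, and the sign turned in 8. With DESeq2, 0 members were called in PQ against control (3 at an unadjusted p under 0.05, edgeR 2), 1 in NAC against control and 1 in PQ against NAC. limma called 1 member in PQ against control on log2(FPKM + 1) and 1 on log2(FPKM + 0.1), and the protocol covariate left 1 in PQ against NAC. With 1 library left out, members called ranged from 0 to 2 in PQ against control, from 1 to 3 in NAC against control and from 1 to 3 in PQ against NAC. Pathway genes called ranged from 2 to 6, from 2 to 6 and from 7 to 12. All genes called ranged from 866 to 2206, from 1286 to 2126 and from 2343 to 4207. Folds that turned sign were near 0: Smad1 ranged from -0.12 to 0.13 in PQ against control and from -0.25 to 0.0024 in PQ against NAC, Bmpr1a from -0.11 to 0.071 in NAC against control (0.0256 with limma on log2(FPKM + 1) and 0.0260 on log2(FPKM + 0.1)), and Bambi from -0.16 to 0.056 in PQ against NAC. For these changes the cause was not tested. The labels carry no replicate numbers, and the only paired fit was by the labelled protocol, which control 1 shares with PQ 1 and control 2 with PQ 2 and which gave, as a covariate, 2067 genes and 2 members in PQ against control. Depth limits Bmp4, Smad6 and Smad7, which had no more than 30.5 normalized counts in any library.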

Other observations

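The TGF-beta branch, which shares Smad4 and the inhibitors Smad7 and Bambi with the BMP branch, held 14 listed genes with values, of which 12 were tested. PQ raised 3 of them, NAC raised 1 and lowered 2, and 4 were higher in PQ than in NAC, where 19.2, 18.7 and 31.6% of all genes tested were called. These counts were not tested against the background. In PQ the Tgfb2 call (0.34, edgeR adjusted p = 0.0186, range 0.0127 to 0.121) was lost without PQ 1 (0.34, 0.121), control 2 (0.30, 0.0625) or PQ 2 (0.34, 0.0918). In NAC the Tgfbr1 call (0.36, edgeR adjusted p = 0.0289, range 0.0194 to 0.283) was lost without control 1 (0.32, 0.0986) or NAC 1 (0.25, 0.283), and that of Tgfbr2 (-0.36, edgeR adjusted p = 0.0128, range 0.00679 to 0.118) without control 2 (-0.29, 0.0725) or NAC 2 (-0.31, 0.118). Between PQ and NAC, Tgfbr2 (0.35, edgeR adjusted p = 0.00889, range 0.00299 to 0.0848) lost its call without PQ 1 (0.35, 0.0636), PQ 2 (0.36, 0.0521) or NAC 2 (0.30, 0.0848). The Tgfbr1 call in NAC was also lost with DESeq2, with the protocol as a covariate and with limma on log2(FPKM + 1). That of Tgfbr2 in NAC was also lost with limma on both FPKM scales. Inhba, which encodes a subunit of activin A, the ligand bound by follistatin, had 28.3 and 30.5 normalized counts in control, 76.9 and 85.2 in PQ, and 35.5 and 40.9 in NAC. It rose in PQ by a log2 fold change of 1.46 (SE 0.24, edgeR adjusted p = 0.000383), in the same libraries in which Fst rose. The co-receptor Tgfbr3 had 184 and 186 normalized counts in control, 348 and 292 in PQ, and 161 and 139.8 in NAC, and rose in PQ by 0.79 (SE 0.14, edgeR adjusted p = 0.000736). The calls of Inhba and Tgfbr3 in PQ were kept under all 13 alternatives.

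Markers of microglia, endothelium, mural cells or fibroblasts and ependyma were low. The 7 microglia markers summed to 2.07 and 1.93 FPKM in control, 3.09 and 3.14 in PQ, and 4.59 and 3.64 in NAC, highest in the NAC libraries. The tested one, P2ry12, made up most of this sum, with 36.7 and 30.5 normalized counts in control, 52.9 and 45.2 in PQ, and 90.7 and 60.9 in NAC. P2ry12 rose in NAC by a log2 fold change of 1.18 (SE 0.26, edgeR adjusted p = 0.00329, range over the alternatives 2.29e-05 to 0.0896), which was lost without NAC 1 (0.86, edgeR adjusted p = 0.0896). Aif1, Csf1r, Ptprc and Tmem119 of this list were at no more than 3 counts in any library. The endothelial markers summed to between 0.22 and 0.62 FPKM, the mural or fibroblast ones to between 0.7 and 2.86, and the ependymal ones to between 5.56 and 8.24. Cdh5 and Kdr of the endothelial list were at no more than 3 counts in any library.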
